A study of Rattus norvegicus with 15 samples.

Results

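Chronic L-DOPA treatment of the dopamine-depleted striatum was examined by setting 3 arrays of the LID group (L-DOPA-induced dyskinesia) against 3 arrays of the PD group (lesioned, no L-DOPA), 6 of the 15 arrays of the series, for all transcripts with a single gene symbol, 18511 of 36685. Every rat of both groups was an adult male Sprague-Dawley rat, 7 weeks old at the start and older when the striatum was taken. Each had a 6-OHDA lesion of the right medial forebrain bundle, the fibre tract that carries the dopamine axons to the striatum. Turning after apomorphine was the sign of a complete lesion. LID rats also received L-DOPA with benserazide, an inhibitor of decarboxylation outside the brain, once daily for 3 weeks, and only rats with full dyskinesia by day 10 entered the group, so that L-DOPA and the selection for dyskinesia cannot be told apart. The study does not say whether PD rats were injected in place of L-DOPA, so the daily injections may also differ between the groups. The striatum of the lesioned side was taken hours after the last L-DOPA dose, with 1 array per rat. Of the other groups, Normal rats had a sham operation and no lesion, LID + Vehicle rats were LID rats with a cannula in the lateral ventricle through which vehicle was infused, and LID + PD98059 rats received the MEK inhibitor by the same route.

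Values are log2 RMA signals, so that a difference of 1 is a doubling of signal. Each group was given 1 mean in a limma fit over all 15 arrays, and a transcript was called where its adjusted p was under 0.05 and its fold change 1.2 or more. Beside it stands an unadjusted threshold, p under 0.05 with the same fold change, and the verbs rose and fell are kept for called transcripts. Each of the 18166 genes is represented by its brightest transcript, and signals under 5.85, a bound that 95 in 100 of the 70 olfactory receptor transcripts did not exceed, are called dim. An exact permutation test of 3 rats against 3 cannot give a p below 0.1, which every gene with separated groups reached.

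The striatum is built mainly of GABA projection neurons of 2 kinds. Direct pathway neurons carry D1 receptors and make dynorphin and substance P, and indirect pathway neurons carry D2 receptors and make enkephalin. After loss of dopamine the D1 receptor becomes supersensitive, and each L-DOPA dose then drives cyclic AMP, ERK kinase and CREB in direct pathway neurons, which switch on early response genes and peptide precursors. Prodynorphin and the Fos family are the classical transcripts linked to dyskinesia in the rat. Astrocytes and microglia react to the lesion.

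Of the 8 projection neuron markers that were measured, 8 stood above the dim level, with a median percentile of 98.7 among all genes. Defining markers of ependyma (0 of 2) and of red blood cells (0 of 1) did not exceed the dim level, whereas 4 of 6 for cortical neurons, 3 of 4 for thalamus and 2 of 5 for choroid plexus did. In tissue of many cell types, fewer cells of a type and less RNA per cell cannot be told apart. One array stood apart from its group. LID replicate 2 correlated with the PD arrays at 0.979 to 0.984 over all transcripts and with LID replicates 1 and 3 at only 0.978 and 0.973, whereas LID replicates 1 and 3 correlated with each other at 0.986. Its microglial list mean was 7.47, against 9.37 and 9.07 in the other LID rats and 7.56 to 8.31 in PD.

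With limma, 2 of 36685 transcripts were called in LID against PD (0.00545%), both higher. At the unadjusted threshold 654 of 18166 genes stood higher (3.60%) and 710 lower (3.91%), and the list counts that follow stand against these shares. For 3085 genes (17.0%) all LID rats lay on one side of all PD rats, 1343 of them higher and 1742 lower. Among genes past the unadjusted threshold, 488 of the 654 higher and 567 of the 710 lower were separated in this way. Over all genes the median log2 difference was −0.02. Over all transcripts 42.6% of those past the unadjusted threshold were higher (1278 against 1719 lower). That share became 57.5% when each array was centred on its median (1701 against 1256), although the median of all genes moved only to 0.01. Without LID replicate 2 the counts over all transcripts became 2259 and 2036.

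Trh was the clearest gene. It encodes the precursor of thyrotropin-releasing hormone, a tripeptide that acts in the hypothalamus on the pituitary and elsewhere in the brain as a neuromodulator. Its log2 values were 5.04, 5.33 and 5.02 in PD and 8.47, 8.61 and 8.26 in LID. The 3 LID rats lay close together and 2.93 log2 units above the highest PD rat at the least. Trh thus rose by 3.32 (SE 0.24, limma, adjusted p = 0.00019), about 10.0-fold on the measured scale, and LID replicate 2 was the highest of the 3 LID arrays. The PD values were below the dim level, which leaves a difference of at least 2.60. Normal rats had 5.67, 5.11 and 5.34, so the low level was shared by unlesioned striatum. None of the other 5 measured genes of TRH processing and reception passed the unadjusted threshold. Among them Pam, the amidating enzyme, differed by −0.05, the convertase Pcsk2 by −0.25, the receptor Trhr by −0.07 and the degrading enzyme Trhde by −0.35.

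B3gnt5 adds N-acetylglucosamine to lactosylceramide and so starts the lacto-series glycosphingolipids of the cell surface. Its values were 4.35, 4.31 and 4.20 in PD and 5.88, 6.49 and 5.78 in LID. All LID rats lay above all PD rats, although LID replicates 1 and 3 were at the dim level itself. B3gnt5 rose by 1.77 (SE 0.22, limma, adjusted p = 0.0347), with a lower bound of 0.21 once PD is set at the dim level. The adjusted p ran from 0.0678 to 0.22 when any 1 of the 6 arrays was left out, so the call rests on all of them. Among 15 glycosphingolipid enzymes, B4galt5, a lactosylceramide synthase, also stood higher at the unadjusted threshold (0.33, SE 0.15). That list count of 2 was 1 without LID replicate 2 or 3 or PD replicate 1 or 2, and the list median was 0.00.

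**Figure D1:**
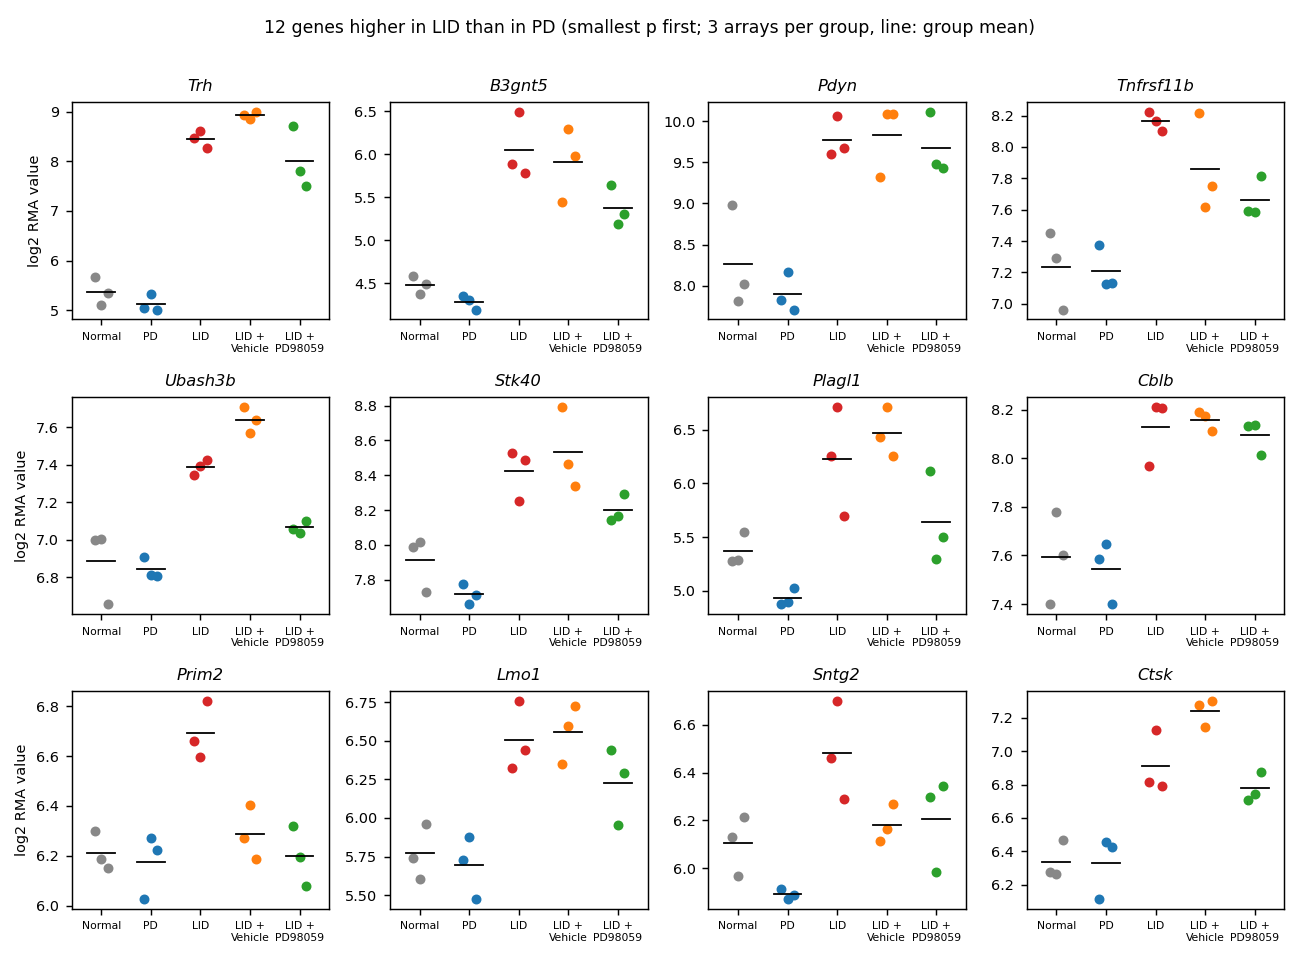
Log2 RMA values of the 12 genes with the smallest p among those higher in LID, in 5 groups of 3 arrays (points, 1 rat each, line at the group mean). PD and LID points do not overlap in any panel, and Trh has the widest gap, from 5.33 in the highest PD rat to 8.26 in the lowest LID rat.

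Pdyn, the precursor of dynorphin, had 7.82, 8.17 and 7.71 in PD and 9.60, 10.06 and 9.67 in LID. The groups were 1.88 apart (SE 0.31, limma, adjusted p = 0.261), 3.67-fold, and the gap between the nearest rats was wider than the spread in either group. The other direct pathway peptide precursor, Tac1, which gives substance P, had 7.06, 7.53 and 7.24 in PD and 7.77, 8.10 and 7.77 in LID, a difference of 0.61 (SE 0.23). Tac1 did not pass the unadjusted threshold without LID replicate 2 or without PD replicate 1 or 3. The indirect pathway peptide Penk differed by −0.02 and the adenosine receptor gene Adora2a, a marker of the same neurons, by −0.03, and neither passed. Of 11 direct pathway markers, 2 stood higher and 2 lower at the unadjusted threshold. The higher count was 1 without LID replicate 2, PD replicate 1 or PD replicate 3, and the lower count was 0 without LID replicate 1 or PD replicate 1 and 1 without LID replicate 3 or PD replicate 3. Those lower were the transporter gene Sfxn1 (−0.33) and Lingo2 (−0.37), and Drd1 itself differed by 0.12. Of 9 indirect pathway markers, 0 stood higher and 1 lower, Grik3 (−0.59), with Drd2 at −0.39 (not past the threshold). Opioid receptors had no member past the threshold, with Oprk1, the dynorphin receptor, at −0.31 and Oprm1 at −0.28.

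Beside the peptides, the granins that fill dense-core vesicles were examined. Scg2, the precursor of secretoneurin, had 8.70, 9.27 and 8.93 in PD and 9.88, 9.94 and 9.66 in LID. The lowest LID rat lay above the highest PD rat, with a difference of 0.86 (SE 0.19, limma, adjusted p = 0.313). Vgf, a neurotrophin-inducible peptide precursor, went from 7.56, 7.57 and 7.63 to 7.90, 8.44 and 7.97. That is a difference of 0.52 (SE 0.19), which missed the unadjusted threshold without LID replicate 2. In all, 2 of 12 members of the granin and peptide processing list stood higher and 0 lower, and the list median was −0.10 (1 higher without LID replicate 2). Chga and Chgb were at −0.15 and −0.10, neither past the threshold.

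Th encodes tyrosine hydroxylase, the rate-limiting enzyme of dopamine synthesis, whose striatal mRNA comes from local neurons, since the nigral cell bodies lie elsewhere. Its values were 5.88, 5.05 and 5.60 in PD and 6.27, 6.98 and 6.83 in LID. The groups did not overlap, and Th stood 1.18 higher (SE 0.25, limma, adjusted p = 0.294), or at least 0.85 with PD at the dim level. No other of 11 catecholamine genes passed, with Ddc at −0.25, Slc18a2 at −0.01 and the dopamine transporter Slc6a3 at 0.09. The study also followed Th, Arnt, a bHLH-PAS partner, and Fosb by PCR. It reports Th and Arnt as raised by L-DOPA on its arrays and by PCR, and more striatal cells positive for the 2 proteins. Here Arnt had 8.29, 8.39 and 8.24 in PD and 8.41, 8.48 and 8.46 in LID, 0.15 apart (SE 0.10, limma, adjusted p = 0.677). Unlike in that report, Arnt passed neither threshold. Fosb had 6.79, 6.75 and 6.82 in PD and 6.83, 7.02 and 6.65 in LID, 0.05 apart (SE 0.18, limma, adjusted p = 0.95), with overlapping groups. The Fosb value is 1 summary of the whole transcript, and the study judged the array's probes for this gene imperfect, with its PCR followed by a single probe set that was not analysed here, so the value may not follow the mRNA. Of 17 genes of ARNT partners and hypoxia targets, 0 stood higher and 1 lower (Hif3a, −0.56), a count that was 2 without PD replicate 2 and 0 without LID replicate 1, LID replicate 3, PD replicate 1 or PD replicate 3.

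The promoters of Trh, Th, Scg2 and Vgf are shown because they hold the cyclic AMP response element TGACGTCA or its core TGACG, which CREB binds. They were chosen after the matches were seen, from the 6 peptide and enzyme genes above that stood higher. Of the others, Pdyn held neither in its window and Tac1 held the core once. The sequences are from RefSeq, rat build GRCr8, each 150 bases up to the annotated start, 5′ to 3′ along the gene, with the match in capitals (TGACG for Trh, read on the other strand as CGTCA, and TGACGTCA for the other genes).
Trh (chr4:126301763-126301912, minus strand): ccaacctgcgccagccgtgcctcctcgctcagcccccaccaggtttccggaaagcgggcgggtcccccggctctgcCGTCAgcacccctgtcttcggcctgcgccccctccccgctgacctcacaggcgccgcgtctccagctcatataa
Th (chr1:207508219-207508368, minus strand): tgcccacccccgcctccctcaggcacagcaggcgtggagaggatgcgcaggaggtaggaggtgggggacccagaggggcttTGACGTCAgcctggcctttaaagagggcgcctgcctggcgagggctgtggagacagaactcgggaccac
Scg2 (chr9:88256867-88257016, minus strand): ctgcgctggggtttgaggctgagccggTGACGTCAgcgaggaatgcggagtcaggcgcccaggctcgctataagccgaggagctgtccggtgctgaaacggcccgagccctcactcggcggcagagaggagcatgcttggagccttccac
Vgf (chr12:25277021-25277170, minus strand): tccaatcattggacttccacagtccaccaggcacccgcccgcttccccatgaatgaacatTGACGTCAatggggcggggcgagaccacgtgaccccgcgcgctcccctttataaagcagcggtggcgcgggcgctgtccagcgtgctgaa
The full element began 69 bases before the start in Th, 123 in Scg2 and 90 in Vgf, and the Trh core lay 74 bases before the start. Over windows of 300 bases, 250 before to 50 after the start and both strands, TGACGTCA was in 1.83% of 33469 promoters and TGACG, which is part of it, in 21.2%. Promoters were at hand for 14564 of the 18166 genes, of which 2.48% held the full element. The share was 3.62% of 552 genes that stood higher at the unadjusted threshold and 2.65% of 528 that stood lower. For TGACG the shares were 29.3% and 21.8%, against 26.2% of the measured genes. A match is a description of the letters and not of binding.

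Of 24 immediate early genes, 1 stood higher at the unadjusted threshold and 0 lower, a share near the 3.60% of all genes that stood higher, with a list median of 0.05. Without LID replicate 2 the higher count was 2, and without LID replicate 3 or PD replicate 2 the lower count was 1. That gene was Egr3, a zinc-finger factor, with 7.41, 7.36 and 7.22 in PD and 8.48, 8.47 and 7.91 in LID. The groups did not overlap and differed by 0.96 (SE 0.22, limma, adjusted p = 0.313). Fos differed by 0.20, Arc by 0.18, Egr1 by 0.04, Junb by 0.04 and Npas4 by −0.69, and none of these passed. The striatum was taken hours after the last L-DOPA dose, and earlier times after a dose were not sampled. Among 18 genes that ERK activity switches on or that feed back on it, 3 stood higher and 1 lower, with a median of 0.01, and 2 were higher with any 1 array left out. None was lower without LID replicate 1, LID replicate 3 or PD replicate 1. Dusp4, a nuclear ERK phosphatase, had 5.42, 5.87 and 5.69 in PD and 6.38, 6.20 and 5.92 in LID (difference 0.51, SE 0.16). The cytoplasmic ERK phosphatase Dusp6 differed by 0.66 (SE 0.29) and the urokinase receptor gene Plaur by 0.60 (SE 0.21). Dusp6 lost the unadjusted threshold with any 1 LID or PD array left out, and Plaur lost it without LID replicate 2. The ETS factor Etv1 stood lower (−0.37, SE 0.14), and Spry2 and Spry4 differed by −0.13 and −0.08.

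Of 19 genes of CREB and cyclic AMP signalling, 4 stood higher and 1 lower, with a median of −0.11, and 2 were higher without LID replicate 1 or PD replicate 1. Higher were the salt-inducible kinase Sik1 (0.39, SE 0.11), Creb1 (0.34, SE 0.10), Crem (0.38, SE 0.13) and the regulatory subunit Prkar2a (0.28, SE 0.13). Sik1 had 7.36, 7.23 and 7.27 in PD and 7.62, 7.84 and 7.54 in LID. The CREB coactivator Crtc1 was lower, with 9.33, 9.21 and 9.36 in PD and 8.75, 9.02 and 8.77 in LID, and the lower count was 0 without LID replicate 1, LID replicate 3 or PD replicate 3. For all 5 the groups did not overlap, as was usual past that threshold (488 of 654 higher and 567 of 710 lower genes). Ppp1r1b, which encodes DARPP-32, differed by −0.14, and Adcy5 by −0.18. None of 18 phosphodiesterases passed in either direction (limma, unadjusted threshold), with Pde10a at −0.27 and Pde1b at −0.30. Of 18 RGS proteins, which shorten G protein signals, Rgs19 stood higher (0.60, SE 0.16) and Rgs12 lower (−0.41, SE 0.15), while the striatal Rgs9 was at −0.19. A single gene in each direction is near the 3.60% and 3.91% of all genes. The counts were 2 higher without LID replicate 2, 2 lower without LID replicate 3 and 0 lower without PD replicate 1.

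Of the other genes among the 12 higher, Tnfrsf11b, the decoy receptor osteoprotegerin, had 7.38, 7.13 and 7.13 in PD and 8.22, 8.17 and 8.10 in LID. The LID rats were within 0.12 of each other and the difference was 0.95 (SE 0.16, limma, adjusted p = 0.261). Plagl1, a zinc-finger regulator of growth arrest, had 4.88, 4.90 and 5.03 in PD and 6.26, 6.71 and 5.70 in LID. Its difference was 1.29 (SE 0.24), or at least 0.38 with PD at the dim level. Lmo1, a LIM-only transcription cofactor, went from 5.73, 5.88 and 5.48 to 6.32, 6.76 and 6.44, with a difference of 0.81 (SE 0.17), or at least 0.66 on the same basis. Ubash3b and Cblb both encode proteins that restrain receptor tyrosine kinases, by dephosphorylation and by ubiquitin transfer. Ubash3b stood 0.55 higher (SE 0.10) and Cblb 0.58 higher (SE 0.11), with adjusted p = 0.261 for both. Stk40, a kinase-like protein, was at 0.71 (SE 0.13), the protease gene Ctsk at 0.58 (SE 0.12), the DNA primase subunit Prim2 at 0.52 (SE 0.11) and the syntrophin Sntg2 at 0.59 (SE 0.12). All had separate groups, a property that the choice of the genes required.

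Among genes lower in LID, Hpcal4 came first. It encodes a calcium sensor of the visinin-like family in neurons, and its values were 9.57, 9.35 and 9.54 in PD and 8.74, 8.50 and 8.44 in LID. The groups were 0.93 apart (SE 0.16, limma, adjusted p = 0.261), and all 3 LID rats lay at least 0.61 below the lowest PD rat. Htr2a, the excitatory serotonin 2A receptor, had 8.66, 8.47 and 8.24 in PD and 7.62, 7.69 and 7.50 in LID. The difference was −0.85 (SE 0.18, limma, adjusted p = 0.294). A second transcript of Htr2a differed by −0.87 (SE 0.24). The potassium channel Kcnb2 had 7.31, 7.08 and 7.21 in PD and 6.67, 6.78 and 6.56 in LID (difference −0.52, SE 0.10). Kcnj9, a G protein-gated potassium channel subunit, had 6.71, 6.37 and 6.74 in PD and 5.94, 5.74 and 6.09 in LID (difference −0.68, SE 0.15). The sodium/calcium/potassium exchanger gene Slc24a3 was at −0.54 (SE 0.11), Plppr3, a membrane protein of neurite growth, at −0.70 (SE 0.15), and the orphan transporter Slc35f1 at −0.54 (SE 0.12). The remainder were Abhd14a (−0.59), the zinc-finger gene Mzf1 (−0.47), the alkaline phosphatase Alpl (−0.46), the clock repressor Nr1d1 (−0.66) and an olfactory receptor, Or52l1b, whose LID values were under the dim level.

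**Figure D2:**
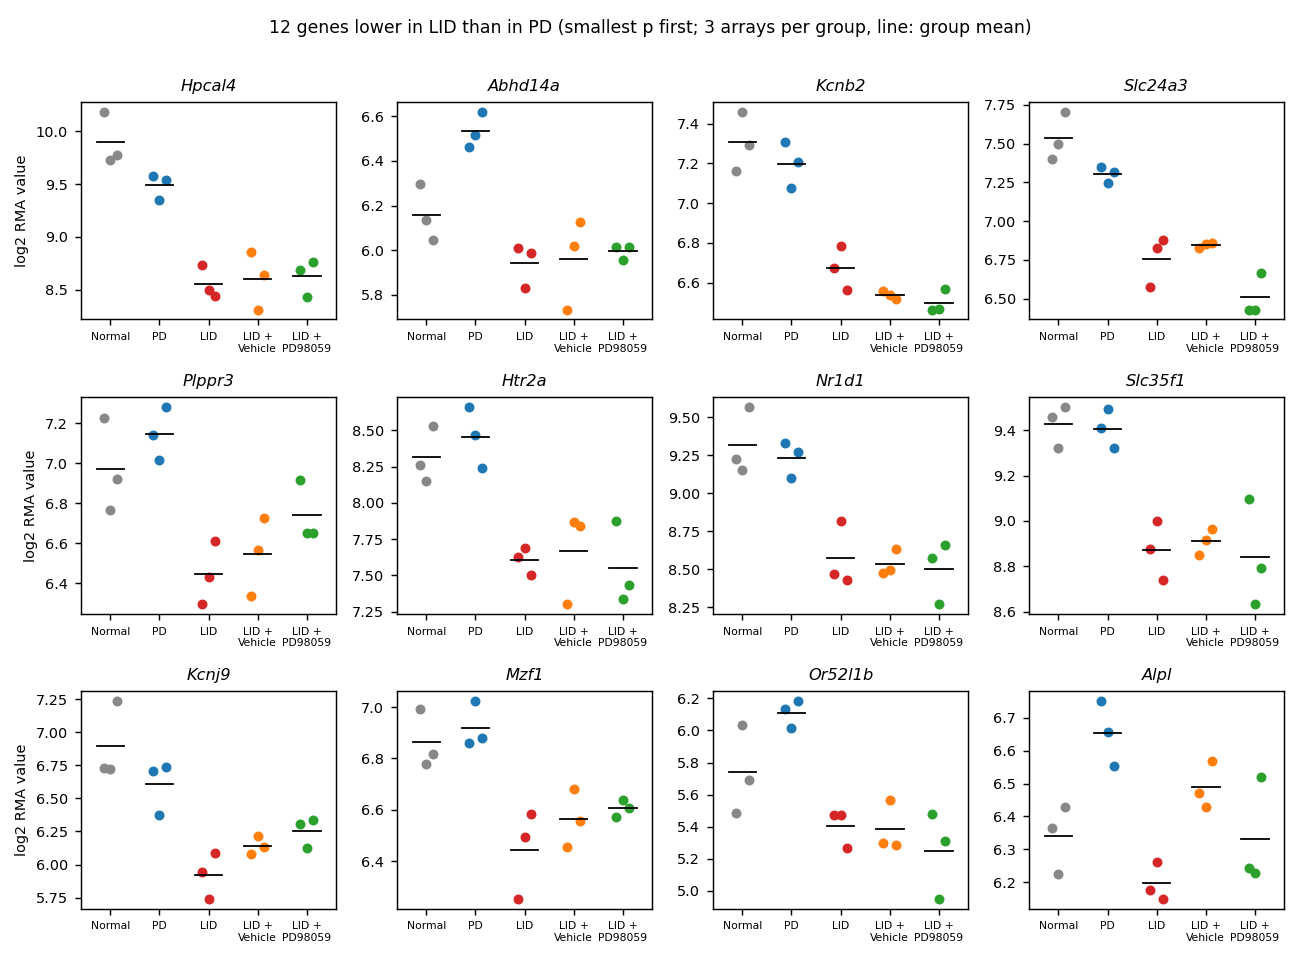
Log2 RMA values of the 12 genes with the smallest p among those lower in LID, in 5 groups of 3 arrays (points, 1 rat each, line at the group mean). For Hpcal4 the PD rats lie between 9.35 and 9.57 and the LID rats between 8.44 and 8.74.

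Lists of calcium sensors, ion channels and receptors were read next, and none of their members was called. Of 16 neuronal calcium sensors, 0 stood higher and 6 lower at the unadjusted threshold, against 3.91% lower of all genes, with a median of −0.26. Next to Hpcal4 these were the channel-interacting proteins Kcnip4 (−0.60, SE 0.15), Kcnip1 (−0.87, SE 0.24) and Kcnip3 (−0.40, SE 0.12), with Necab3 (−0.53) and Vsnl1 (−0.53). Kcnip4 had 8.35, 8.20 and 7.84 in PD and 7.52, 7.56 and 7.53 in LID, without overlap. With 1 array left out the count of lower sensors was 4 to 6. Of 37 potassium channels, 5 were lower and 0 higher (median −0.15, with 2 lower without LID replicate 1 and 3 without PD replicate 1), with Kcnk2 (−0.74), Kcna2 (−0.38) and Kcnj6 (−0.95) beside the 2 named above. The Kcnj6 value had the largest error of these 5, with 6.57, 5.82 and 7.09 in LID and an SE of 0.43. Of 14 serotonin receptors, 4 were lower and 0 higher, with a median of −0.26. Htr1d went from 6.68, 7.02 and 7.06 to 6.11, 6.40 and 6.05 (difference −0.74, SE 0.28). Htr5a differed by −0.38, and Htr1a lay under the dim level in both groups. Htr1b, the receptor of striatal nerve endings, was at 0.35 and did not pass. Without LID replicate 2 the count of lower serotonin receptors was 7, and without LID replicate 1 or PD replicate 2 it was 2.

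Of 18 dopamine and acetylcholine receptors, 5 stood lower and 0 higher (median −0.22), all 5 being acetylcholine receptors. Chrm1, the main muscarinic receptor of projection neurons, had 8.79, 8.72 and 8.59 in PD and 8.17, 8.45 and 8.0 in LID (difference −0.49, SE 0.20). Chrm3 was at −0.46, Chrna7 at −0.32, Chrna4 at −0.80 and Chrna5 at −0.62. The count was 0 without PD replicate 1 and 2 to 4 without any other of the 6 arrays. GABA receptors had 3 of 16 genes lower and 0 higher (median −0.22), namely Gabra3 (−0.45), Gabra5 (−0.80) and Gabrb1 (−0.38), while the GABA-synthesising Gad1 and Gad2 were at 0.24 and −0.09. Gabrb1 was the tightest, with 9.12, 9.06 and 9.03 in PD and 8.71, 8.69 and 8.67 in LID. Glutamate receptors had 3 of 18 lower, the kainate receptors Grik3 (−0.59) and Grik1 (−0.34, under the dim level) and the AMPA receptor Gria3 (−0.33). The count fell to 1 without LID replicate 1, LID replicate 3 or PD replicate 1. Grik3 had 8.05, 8.13 and 8.07 in PD and 7.39, 7.39 and 7.70 in LID. Grin1, Grin2a and Grm5 were at −0.04, 0.03 and −0.08. Of 28 synaptic vesicle proteins, 3 were lower (Sv2b, −0.54, Syt2, −0.68, and Syt17, −0.72) and 23 had a negative difference. None of 14 postsynaptic scaffolds passed (limma, unadjusted threshold), with a median of −0.12, and 2 were lower without PD replicate 2 and 1 without LID replicate 2.

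Cortical neuron markers moved beside these groups. All 9 measured were lower in LID, with a median of −0.32, and 0 of 9 passed the unadjusted threshold. The list mean was 7.99, 7.53 and 7.67 in PD and 7.42, 6.90 and 7.59 in LID. The groups overlapped, and LID replicate 2 was lowest. When that list mean was entered as a covariate, a setting chosen after the data were seen, the lower counts were 8 calcium sensors, 8 potassium channels, 7 serotonin receptors, 4 dopamine and acetylcholine receptors, 5 GABA genes and 5 glutamate receptors, against 6, 5, 4, 5, 3 and 3 without it. With the microglial list mean in its place they were 5, 4, 2, 4, 3 and 1. The part of cortical RNA in these values was not tested. Myelin genes passed in neither direction (0 of 14), and their median was −0.10.

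**Figure D3:**
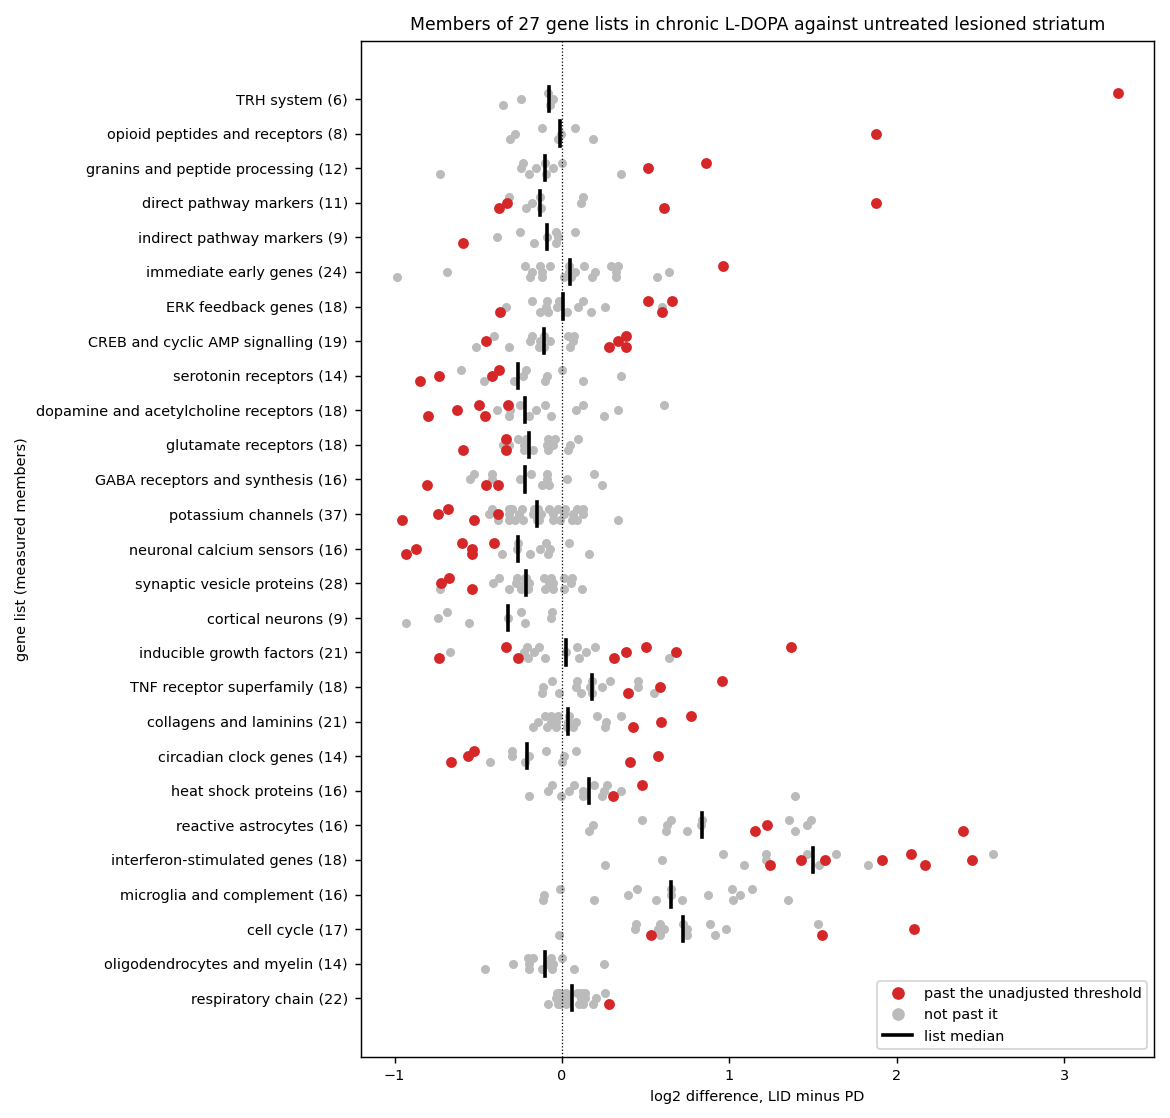
Log2 difference of LID minus PD for every measured member of 27 gene lists (points, red past the unadjusted threshold), with the list median as a bar. Interferon-stimulated, reactive astrocyte and cell cycle lists lie to the right with medians of 1.5, 0.83 and 0.72. Serotonin, dopamine and acetylcholine, glutamate and GABA receptor, potassium channel and calcium sensor lists lie left of 0 with medians between −0.15 and −0.26. Of the other receptor lists, TNF receptors have a median of 0.18 and opioid peptides and receptors of −0.01.

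Secreted factors differed in both directions. Of 21 growth factors, 5 stood higher and 3 lower, with a median of 0.02. Without LID replicate 1, PD replicate 1 or PD replicate 3 the higher count was 3, and without PD replicate 3 the lower count was 1. Tgfb1 had 7.48, 7.09 and 6.70 in PD and 8.68, 7.78 and 8.91 in LID (difference 1.37, SE 0.38, limma, adjusted p = 0.399), whereas its relative Tgfb2 had 7.50, 7.24 and 7.41 in PD and 6.51, 6.49 and 6.94 in LID (difference −0.73, SE 0.28). Neither pair of groups overlapped, as was usual for genes past the unadjusted threshold. Fgf2 was at 0.50 (SE 0.17), Fgf9 at 0.38, Pdgfb at 0.31 and the activin subunit Inhba at 0.68, while Inhbb (−0.27) and Areg (−0.33, under the dim level) were lower. Bdnf and Gdnf were both at −0.21 and did not pass. Of 18 TNF receptors, 3 were higher, with Ltbr (0.40) and Cd40 (0.59) beside Tnfrsf11b, and 14 had a positive difference (5 higher without LID replicate 2 and 1 without LID replicate 3). Cd40 was near the dim level, with 5.09, 5.30 and 5.22 in PD and 5.86, 5.42 and 6.10 in LID. Of 21 collagens, laminins and fibronectin, 3 were higher, Col5a2 (0.59, SE 0.14), Fn1 (0.77, SE 0.20) and Lamc1 (0.42, SE 0.13), and the list median was 0.03. All 3 were without overlap, again the usual state past that threshold. Fn1 had 7.90, 7.99 and 7.77 in PD and 8.57, 8.44 and 8.97 in LID.

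Glial and immune genes had the widest differences and the widest spread among the LID rats. Of 18 interferon-stimulated genes, 18 had a positive difference and 7 passed the unadjusted threshold, with a median of 1.5. Their mean was 7.91, 6.24 and 8.68 in LID and 6.11, 6.51 and 5.68 in PD. LID replicate 2 lay inside the PD range and the other LID rats far above it. Isg15, a ubiquitin-like modifier, had 6.99, 4.58 and 8.72 in LID against 4.41, 4.76 and 3.77 in PD. Irf7, the interferon regulatory factor, had 8.35, 6.28 and 9.24 against 5.95, 6.46 and 5.21. Rsad2, an antiviral enzyme, had 7.83, 6.04 and 9.07 against 5.75, 5.77 and 4.92. The count of 7 became 17 without LID replicate 2, 1 without PD replicate 1, and 0 without LID replicate 1, LID replicate 3 or PD replicate 3. It was also 1 with the microglial list mean as a covariate. The windows of Irf7 and Rsad2 are shown because the interferon response element, searched as GAAANNGAAA on both strands, lay in 10 of the 13 interferon list genes with a promoter at hand and in 3.66% of all measured genes. The matches, in capitals and on the other strand, began 69 and 147 bases before the start (RefSeq, GRCr8, 150 bases each).
Irf7 (chr1:205800024-205800173, minus strand): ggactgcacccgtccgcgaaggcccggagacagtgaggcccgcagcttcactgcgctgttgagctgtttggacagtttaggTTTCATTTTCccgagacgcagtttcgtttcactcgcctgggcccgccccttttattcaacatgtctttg
Rsad2 (chr6:48788121-48788270, minus strand): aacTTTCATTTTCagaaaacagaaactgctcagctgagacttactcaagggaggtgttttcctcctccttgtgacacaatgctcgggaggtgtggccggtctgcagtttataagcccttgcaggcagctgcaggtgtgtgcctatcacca

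Of 14 MHC and antigen presentation genes, 14 had a positive difference and 0 passed (limma, unadjusted threshold), with a list mean of 9.05, 6.76 and 9.34 in LID and 8.02, 8.02 and 6.68 in PD. LID replicate 2 was also the lowest LID rat for 16 microglial and complement genes (0 passed, median 0.65) and 18 chemokine genes (0 passed, median 0.61). Without that rat each of the 3 lists had 8 genes past the threshold. Many MHC genes of the rat are close copies, so their probes may read each other. Reactive astrocyte genes were less divided. All 16 had a positive difference, 3 passed, and in 8 the groups did not overlap, against 17.0% of all genes. Gfap, the intermediate filament of astrocytes, had 10.23, 10.44 and 10.54 in PD and 11.78, 10.78 and 12.09 in LID (difference 1.15, SE 0.38). Timp1, a protease inhibitor, had 5.93, 6.21 and 6.10 in PD and 8.86, 7.62 and 8.96 in LID (difference 2.40, SE 0.69, limma, adjusted p = 0.412). Vim differed by 1.22 (SE 0.51). LID replicate 2 was the lowest LID rat for all 3 but stayed above the PD rats. With LID replicate 2 left out 7 astrocyte genes passed, and with LID replicate 3 left out 1 did. Homeostatic astrocyte genes passed in neither direction (0 of 12, median −0.07).

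Of 17 cell cycle genes, 16 had a positive difference and 3 passed. Mki67, a marker of dividing cells, had 8.26, 6.81 and 10.04 in LID and 6.40, 6.57 and 5.84 in PD. Top2a had 6.94, 5.67 and 8.30 against 5.37, 5.76 and 5.12. LID replicate 3 was highest for both and replicate 2 was near PD. The count became 13 without LID replicate 2, 1 without LID replicate 1 or PD replicate 2, and 0 without LID replicate 3, PD replicate 1 or PD replicate 3. With the microglial list mean as a covariate it was 0 and the list median 0.38.

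**Figure D4:**
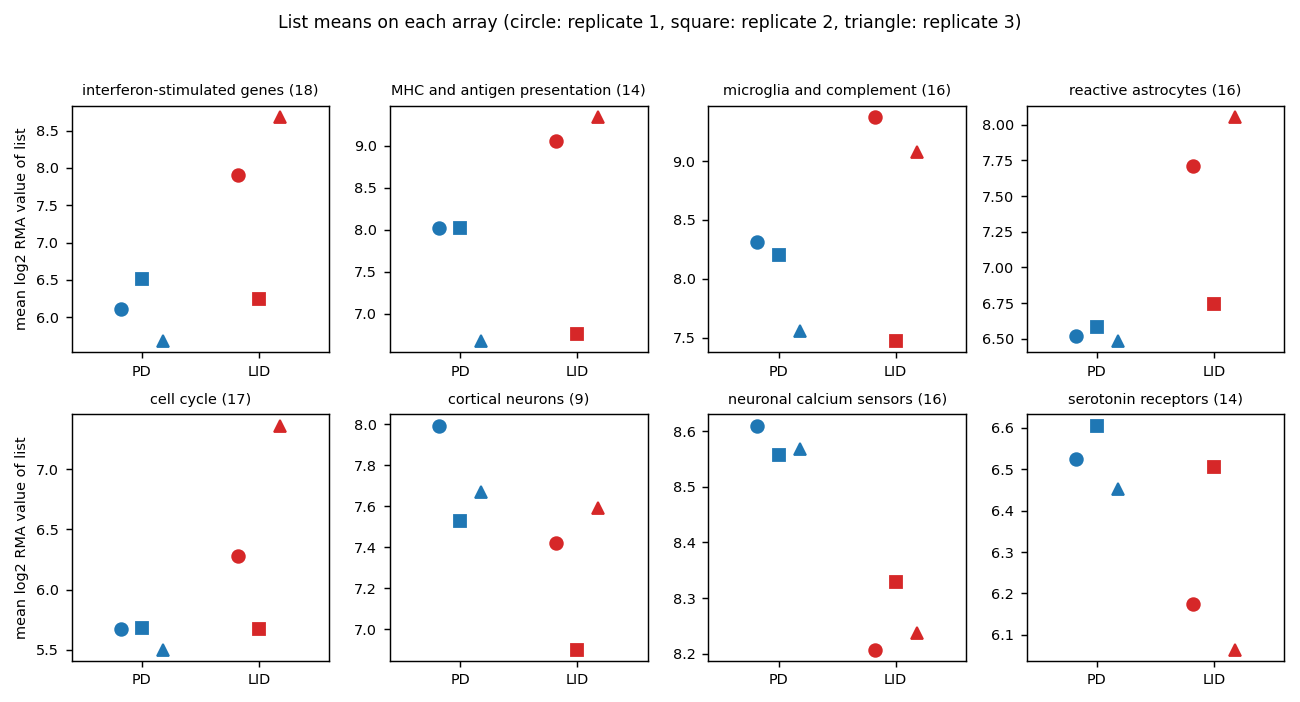
Mean log2 RMA value of 8 gene lists on each PD and LID array (1 point per rat, with a symbol per replicate number). For interferon-stimulated genes LID replicate 2 lies at 6.24 inside the PD range and the other LID rats at 7.91 and 8.68, whereas for calcium sensors all LID rats (8.21 to 8.33) lie below all PD rats (8.56 to 8.61).

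Clock, stress and energy genes completed the comparison. Of 14 circadian clock genes, 2 stood higher and 3 lower, with a median of −0.21, and without LID replicate 2 these were 1 and 4. Nr1d1 had 9.33, 9.10 and 9.27 in PD and 8.47, 8.82 and 8.43 in LID (SE 0.14, limma, adjusted p = 0.313). Its fellow outputs Dbp (−0.53) and Ciart (−0.56) were lower too, while the repressors Cry1 (0.41) and Bhlhe40 (0.57) were higher. Per2 was at 0.00, and the hour of sacrifice by group is not given in the sources used here. Of 16 heat shock proteins, 2 were higher, the endoplasmic reticulum chaperone Hspa5 (0.48, SE 0.16) and Dnaja1 (0.30, SE 0.13), and the count was 4 without LID replicate 3 and 1 without LID replicate 1, PD replicate 1 or PD replicate 3. Dnaja1 had 9.99, 10.11 and 9.78 in PD and 10.33, 10.30 and 10.17 in LID, without overlap. Of 13 glucocorticoid-responsive genes, Fkbp5 (0.51, SE 0.20) and Mt2A (1.12, SE 0.51) were higher, the latter with overlapping groups, and Tsc22d3 was at −0.35. That count was 0 without LID replicate 1, PD replicate 1 or PD replicate 3 and 1 without any other array. Of 22 respiratory chain genes, 1 was higher (Cox7b, 0.28), a share near the 3.60% of all genes, and the median was 0.06. The count was 3 without PD replicate 2 and 0 without LID replicate 1, LID replicate 2 or PD replicate 1, and Cox7b lost the threshold under 10 of 17 alternatives. Cholesterol synthesis genes passed in neither direction (0 of 16, median 0.00). The thalamic marker Prkcd, a kinase gene also present in other cells, stood 1.19 higher (SE 0.37), with the other defining thalamic markers Slc17a6, Tcf7l2 and Lef1 at −0.09, −0.05 and 0.10.

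The 24 genes of both plots by group were then read on arrays that had no part in their choice, LID + Vehicle against Normal. That pair differs by the lesion and the infusion as well as by L-DOPA, so it is a second reading and not a repeat, and both contrasts take their spread from the same fit. At the unadjusted threshold 5.99% of all genes were higher and 7.18% lower in that pair, and 212 of 36685 transcripts were called (0.578%). Of the 12 genes higher in LID, 12 had the same sign, 10 passed the unadjusted threshold and 6 were called. Those called were Trh (3.55, SE 0.24, adjusted p = 8.41e-05), B3gnt5 (1.42, adjusted p = 0.0153), Pdyn (1.57, adjusted p = 0.0405), Ubash3b (0.75, adjusted p = 0.00835), Ctsk (0.90, adjusted p = 0.00911) and Cblb (0.56, adjusted p = 0.0472). Prim2 (0.07) and Sntg2 (0.08) did not pass. Of the 12 lower genes, 11 had the same sign, 10 passed and 5 were called, Hpcal4 (−1.29, adjusted p = 0.00835), Kcnb2 (−0.76, adjusted p = 0.00835), Slc24a3 (−0.69, adjusted p = 0.0188), Nr1d1 (−0.78, adjusted p = 0.0345) and Kcnj9 (−0.75, adjusted p = 0.0474). Alpl had the other sign (0.15) and Abhd14a (−0.20) did not pass. Th rose in this pair (by 1.5, SE 0.25, adjusted p = 0.0247), with 5.57, 5.60 and 5.57 in Normal and 6.93, 7.48 and 6.84 in LID + Vehicle. Arnt (0.33, SE 0.10, limma, adjusted p = 0.222) and Fosb (0.47, SE 0.18, limma, adjusted p = 0.335) were not called. Both stood higher at the unadjusted threshold in this pair, Arnt without overlap and Fosb with overlapping groups.

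Over all genes, 90.1% of the 654 that stood higher in LID had a positive difference in the second pair, where 47.9% of all genes did, and 37.8% of them passed. Of the 710 that stood lower, 82.0% had a negative difference, against 52.1% of all genes, and 39.2% passed. Cortical markers stood lower in the second pair as well, with a median of −0.77 and 7 of 9 genes lower at the unadjusted threshold. Reactive astrocyte genes had a median of 1.56 there, with 13 of 16 higher. Tac1, higher in LID than in PD, was at 0.02 in that pair, Scg2 at 1.18 and Vgf at 0.82. Immediate early genes had a median of 0.41 in that pair, with 7 of 24 higher and 1 lower at the unadjusted threshold. Their list mean was 7.92, 7.25 and 7.07 in LID + Vehicle and 7.17, 7.09 and 7.06 in Normal. LID + Vehicle replicate 1 thus stood apart and replicate 3 lay inside the Normal range.

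**Figure D5:**
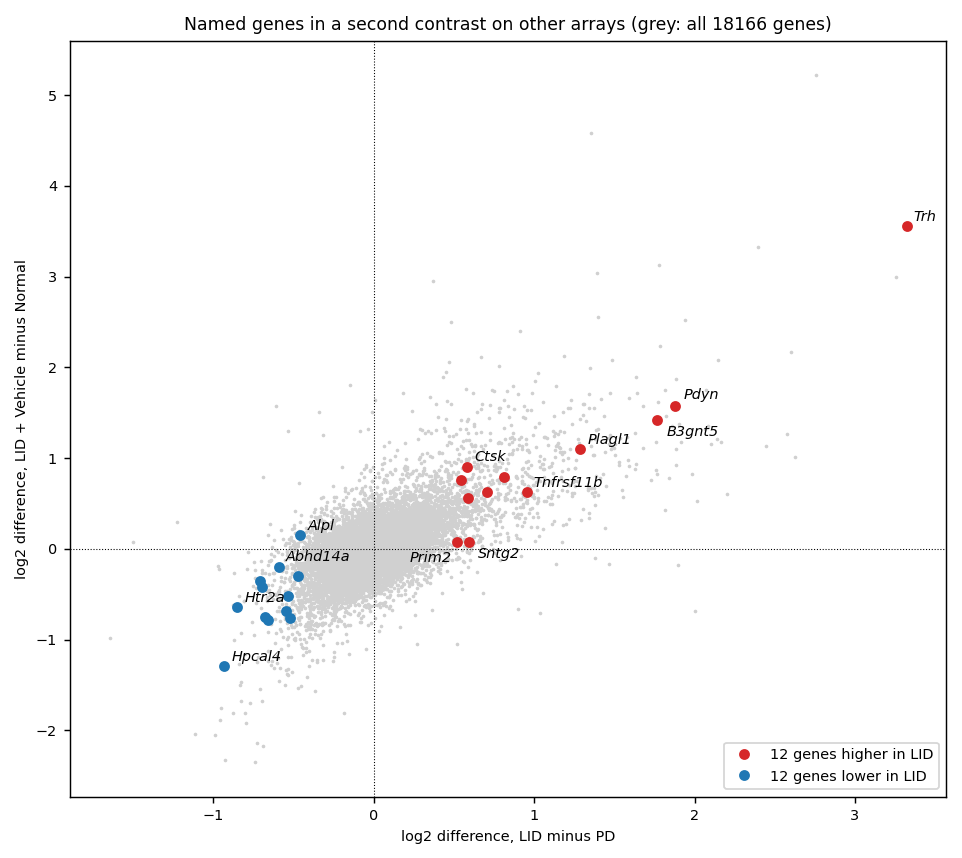
Log2 difference of LID + Vehicle minus Normal (vertical) against LID minus PD (horizontal) for all 18166 genes (grey) and the 24 named genes (red higher, blue lower in LID), which use no array in common. Trh lies at 3.32 and 3.55, and Prim2 and Sntg2 lie near 0 on the vertical axis.

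LID + Vehicle and LID themselves differed for 0 of 18166 genes by limma after adjustment (0%), and 485 genes (2.67%) passed the unadjusted threshold. Of the 24 named genes, 5 (20.8%) had an unadjusted p under 0.05, counted without the fold change that the 485 also met. Prim2 (−0.40), Sntg2 (−0.30) and Alpl (0.29) stood nearer to the PD level with vehicle, and Ubash3b (0.25) and Ctsk (0.33) stood farther from it. The 24 were chosen by small p in LID against PD, which favours extreme LID values. A level nearer to PD with vehicle can follow from that choice alone, and the shares cannot be compared directly.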

How the data were processed

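Striatal RNA of 15 rats was hybridised to Affymetrix Rat Gene 2.0 ST arrays. The deposited table holds log2 signals per transcript, which the authors made with RMA in Expression Console after background adjustment. Their methods name the software's exon level setting and a median over the probes of each transcript. The version is not given in the sources used here. The values were used without further scaling. The number of arrays, 3 per group with 1 rat each, limits the precision.

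Tests ran in limma 3.58.1 under R 4.3.3 (lmFit and eBayes without trend, 1 mean per group, two-sided, Benjamini-Hochberg over 36685 transcripts) and plots in matplotlib 3.10.9 under Python 3.11.15. The fit was tested on simulated data. Of 36685 transcripts 18511 had 1 symbol, 575 several and 17599 none, and 18394 matched the RefSeq table by gene ID.

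The members and the 46 gene lists were chosen with earlier results of these data known. Named genes were called transcripts, the 12 per direction with the smallest p that had separate groups and a level above the dim level, up to 4 members per list by p, and Th, Arnt and Fosb. Other members given with values serve as context and were chosen after their values were seen. Alternatives covered moderation, weights, filtering, scaling, a replicate block, each array left out and 2 marker covariates added later.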

Additional observations from a re-analysis of the deposited data

How the results depend on the processing

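Trh was called under 16 of 17 alternatives (3.01 to 3.42) and B3gnt5 under 6 of 16. Over the 24 named genes and Th, every alternative kept the direction, and the 11 of 423 that lost the threshold were 10 of B3gnt5 and 1 of Trh. Those 2 genes were judged at the adjusted threshold and the others, none of them called, at the unadjusted one. The 24 were chosen by small p in these same arrays, which largely fixed this outcome, so it is no measure of robustness. The 2 called transcripts became 1 with only the 6 arrays, with dim transcripts removed, with the replicate block and with the cortical covariate, and 0 with the unmoderated linear model (713 higher and 1118 lower at the unadjusted threshold). The higher count of 1278 became 2011 with array weights and 750 with single-symbol transcripts only. The lower count of 1719 became 792 with the latter and 795 with dim transcripts removed. With 1 array left out, calls ran from 1 to 2, higher counts from 910 to 2259 and lower counts from 1291 to 2036. Deviations of same-numbered LID and PD arrays correlated at −0.00, −0.09 and −0.09, and those of differently numbered arrays at −0.09 to 0.15. With 3 arrays per group this cannot show whether the replicate numbers mark a pairing or batch. The replicate block gave 1 call, 1199 higher and 1675 lower. The 3 rats per group and levels near the dim level limit what can be shown. Causes were not tested.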

Other observations

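The LID + PD98059 rats enter the comparison above through the spread of the fit and not through its means. In them Trh had 8.70, 7.81 and 7.51, B3gnt5 5.64, 5.19 and 5.30, Pdyn 10.11, 9.48 and 9.43, and Th 5.77, 5.92 and 6.45. Ubash3b had 7.06, 7.04 and 7.10, below all LID rats (7.35 to 7.42) and above all PD rats. B3gnt5 likewise lay below all LID rats and above all PD rats, but it overlapped LID + Vehicle (5.45 to 6.30). Hpcal4 had 8.69, 8.43 and 8.76, within the range of LID and LID + Vehicle.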
